A study of Mus musculus with 15 samples.

Results

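The potassium channel genes described here are those whose mouse symbol is Kcn followed by 1 letter and 1 digit, with at least 10 counts in 3 or more of the 15 libraries. Of 27179 gene IDs in the count table, 83 had such a symbol and 73 reached that minimum. Of the 73, 71 encode channels or channel subunits, and 2, Kcnq1ot1 and Kcnd3os, are antisense RNAs. At least 10 counts were present in every library for 58 of the 73. The member with the fewest counts inside the rule was Kcnn4, at 208 counts over all libraries, and the gene with the most counts outside it was Kcnj15, at 85. The other genes left out were Kcna7, Kcna10, Kcne1, Kcne3, Kcnj1, Kcnk7, Kcnk16, Kcnk18 and Kcnv2, with 1 to 74 counts in all, and 31 of the 74 counts of Kcnv2 lay in TG female 3.

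The study sequenced RNA of brain hemispheres, as the samples are labelled, of mice with a PLP-α-synuclein transgene, a model of multiple system atrophy. Transgenic animals (TG) were homozygous and overexpressed human α-synuclein from the promoter of PLP, a gene of oligodendrocytes, the cells that make myelin. They were set against animals without the transgene (WT) on a C57Bl/6 background, matched for age and sex. There were 4 TG female, 3 TG male, 4 WT female and 4 WT male libraries, all from mice 12 months old. Each of these 4 groups carries 1 number in its sample titles, so group cannot be told apart from a cage or litter that such a number may stand for. The labels describe no pooling of animals, and do not state that each library is 1 animal, so p-values cover the spread among these samples alone. Libraries held 15170772 to 35850998 counts (median 17635366), and the channel genes together held 0.55 to 0.793% of the counts.

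Potassium channels let potassium ions leave or enter the cell and so set the resting potential, end the action potential and fix how fast a neuron can fire again. Voltage-gated (Kv) channels are built from 4 pore subunits that open on depolarisation, inward rectifiers (Kir) hold the membrane near the potassium equilibrium, two-pore-domain (K2P) channels carry leak current, and calcium- or sodium-activated channels respond to activity. In the brain the subunits are divided between regions, cell types and parts of the cell, with Kv1 channels in the axon beside the nodes of Ranvier, Kv2 and Kv4 channels on soma and dendrites, Kv3 channels in fast-firing neurons and the Kir subunit encoded by Kcnj10 in glia.

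All samples carry the label hemisphere, but their region markers differed. Clustering on 5 lists of region markers, none of which holds a potassium channel gene, gave 4 library classes. The hindbrain-marker class held TG females 1 and 4, WT female 3 and WT male 3, with 504 to 596 CPM (counts scaled to the library total) summed over 12 hindbrain genes, against at most 1.37 CPM in the cortex- and olfactory-marker classes. The cortex-marker class held TG male 4, WT female 2 and WT male 4, with 2768 to 2987 CPM over 10 genes of excitatory neurons, against 879 to 1460 CPM in the olfactory-marker class. TG female 3 formed the cerebellum-marker class alone, with 7752 CPM over 10 cerebellar genes. These summed to 109 to 170, 41.4 to 61.2 and 176 to 228 CPM in hindbrain-, cortex- and olfactory-marker libraries. The 12 hindbrain genes summed to 29.8 CPM in TG female 3. The other 7 libraries, TG female 2, TG males 1 and 3, WT females 1 and 4 and WT males 1 and 2, form the olfactory-marker class. It is named after 8 olfactory bulb genes that played no part in the clustering and summed to 542 to 1420 CPM there. They summed to 18.9 to 25.7 CPM in the hindbrain-marker class, 20.7 to 101.5 CPM in the cortex-marker class and 50.7 CPM in TG female 3. The olfactory-marker class was not uniform, as 10 genes of striatal projection neurons summed to 271 to 1780 CPM within it. All values below are set beside this class, and as the classes were formed from the same libraries, differences between classes carry no test. In bulk tissue, fewer cells of a type and less RNA per cell cannot be told apart.

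Library class went with most of the spread of the channel genes, and genotype within class with little of it. Over the 73 genes, class took a median of 91.7% of the variance of log2(CPM + 0.5), against 79.0% over all 17151 genes tested, and genotype within class took 2.08%, against 5.17%. Class took the most for Kcnj4 (99.6%) and the least for Kcne4 (12.5%). The cerebellum-marker class is 1 TG library, so its whole deviation counts as class and none of it as genotype. Class thus took 97.0% for Kcnk3, which had 158 CPM in that library and at most 54.5 CPM in any other. A gene is said here to stand apart between classes where no library of one overlaps the other and the class means of log2(CPM + 0.5) differ by at least 1, a 2-fold difference. By that rule 13 of the 73 genes were higher and 20 lower in hindbrain- than in olfactory-marker libraries, where 7.85% of all genes were higher and 7.31% lower. Between cortex- and olfactory-marker libraries 13 were higher and 8 lower in cortex, beside 4.33% and 5.02% of all genes. Between hindbrain- and cortex-marker libraries 14 were higher and 20 lower in hindbrain, beside 8.88% and 7.57%. In at least 1 of these pairs 46 genes stood apart, 27 did so in none, and Kcna5, Kcnb2, Kcnk4, Kcnq5, Kcns1, Kcns3 and Kcnv1 did so in all 3. The median log2 difference of the members was -0.05, 0.23 and -0.25 in these 3 pairs, beside 0.00647, -0.0124 and 0.0150 over all genes.

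**Figure D1:**
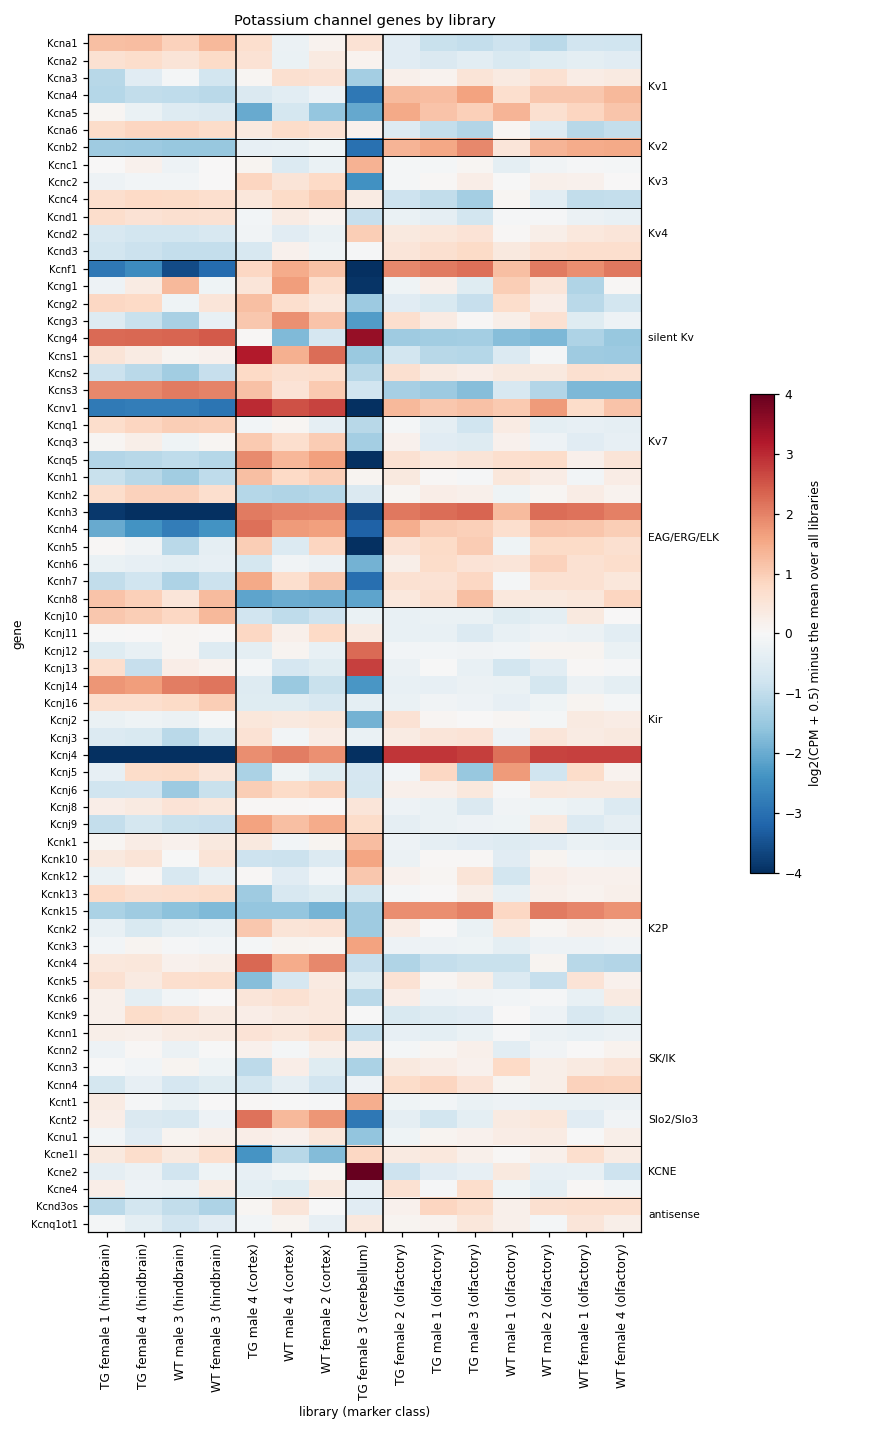
Level of 69 potassium channel genes (rows, by subfamily) in the 15 libraries (columns, by marker class, TG left of WT within a class), as log2(CPM + 0.5) minus the gene's mean over all libraries, with colours saturating at 4 in either direction. The blocks of colour follow the marker classes: Kcnj4, Kcnh3, Kcnf1 and Kcnv1 are low in all 4 hindbrain-marker libraries and in the cerebellum-marker library, and Kcng4 is high in these 5.

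Sequences upstream of the gene start are given for 6 members, chosen after their values were seen because they stand apart with wide class differences (Kcnj4, Kcnf1, Kcng4, Kcns1) or are close neighbours that differ in opposite directions (Kcnj9, Kcnj10). Each is the 250 bases before a RefSeq start on GRCm38.p6, read 5′ to 3′ on the strand of the gene, with every CpG in capitals. The windows are chr15:79505242-79505491 (minus strand), chr12:17176889-17177138 (minus), chr8:119635681-119635930 (minus), chr2:164171114-164171363 (minus), chr1:172329323-172329572 (minus) and chr1:172340960-172341209 (plus). That of Kcnj4 lies inside the annotated span of the gene (chromosome 15, 79480226 to 79512511, minus strand), before one of its starts.
Kcnj4: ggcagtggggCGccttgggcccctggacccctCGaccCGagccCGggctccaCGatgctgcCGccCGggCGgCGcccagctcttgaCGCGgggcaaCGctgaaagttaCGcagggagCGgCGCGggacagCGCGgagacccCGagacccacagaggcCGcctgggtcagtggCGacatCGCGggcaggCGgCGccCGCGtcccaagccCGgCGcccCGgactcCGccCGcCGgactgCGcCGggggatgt
Kcnf1: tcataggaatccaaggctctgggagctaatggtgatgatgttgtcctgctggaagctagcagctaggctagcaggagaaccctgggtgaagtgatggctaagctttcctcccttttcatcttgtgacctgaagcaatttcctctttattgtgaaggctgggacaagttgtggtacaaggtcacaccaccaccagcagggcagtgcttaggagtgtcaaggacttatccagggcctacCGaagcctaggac
Kcng4: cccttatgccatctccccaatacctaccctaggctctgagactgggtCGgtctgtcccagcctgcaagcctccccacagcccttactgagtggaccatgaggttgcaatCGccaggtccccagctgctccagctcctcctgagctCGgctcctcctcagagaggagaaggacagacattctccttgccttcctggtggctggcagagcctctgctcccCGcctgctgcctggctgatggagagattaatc
Kcns1: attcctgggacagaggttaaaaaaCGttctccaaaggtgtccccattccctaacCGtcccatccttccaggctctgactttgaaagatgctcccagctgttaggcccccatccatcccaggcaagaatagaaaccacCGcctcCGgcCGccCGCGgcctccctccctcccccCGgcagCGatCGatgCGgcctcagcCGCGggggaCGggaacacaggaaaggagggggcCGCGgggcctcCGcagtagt
Kcnj9: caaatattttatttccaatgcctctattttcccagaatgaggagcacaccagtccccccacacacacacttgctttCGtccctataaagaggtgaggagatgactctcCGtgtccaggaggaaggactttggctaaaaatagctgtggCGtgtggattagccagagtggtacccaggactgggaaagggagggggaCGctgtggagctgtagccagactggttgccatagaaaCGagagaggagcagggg
Kcnj10: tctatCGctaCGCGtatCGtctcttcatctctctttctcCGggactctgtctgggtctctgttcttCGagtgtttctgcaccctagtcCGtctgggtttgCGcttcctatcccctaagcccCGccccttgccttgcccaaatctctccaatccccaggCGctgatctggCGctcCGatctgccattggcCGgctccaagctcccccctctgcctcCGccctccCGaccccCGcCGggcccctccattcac
The Kcnj4 window holds 35 CpG, a number reached by 2.97% of the 32851 windows of this kind. The Kcnf1 window holds 1, a number reached by 92.1%. Kcng4 has 4 and Kcnj9 5, reached by 62.2% and 55.6%, and Kcns1 and Kcnj10 have 17 each, reached by 23.5%. Kcnj4 and Kcnf1, both low in hindbrain-marker libraries, thus lie near opposite ends of the range of CpG. Windows were counted for the 71 channel and subunit genes, without the 2 antisense RNAs, and were present for 49 of them. There were 64 windows in all, with a median of 9 CpG against 6 over all windows. The motif TATAAA, searched on both strands, occurred in 3 of the 64 windows of members and in 12.4% of all windows, and the capitals and this count describe the letters alone.

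Per kilobase of exon, the leading channel genes differed by class. In hindbrain-marker libraries Kcnj10, the main Kir subunit of astrocytes and also a subunit of oligodendrocytes, led with 228 ± 32.1 CPM per kb (SD, n = 4). Kcna1 followed with 199 ± 21.9 CPM per kb. In cortex-marker libraries Kcna1 led with 104 ± 33.4 CPM per kb (SD, n = 3), and Kcnj9 and Kcnj4 were next with 79.2 ± 11.4 and 77.8 ± 6.78, within the SD of Kcna1. In the cerebellum-marker library the Kv3 gene Kcnc1 was among the leading members, at 135 CPM per kb. In olfactory-marker libraries Kcnj4 and Kcnf1 led with 135 ± 19.0 and 116 ± 22.7 CPM per kb (SD, n = 7), and the libraries of these neighbours in the order overlapped (93.9 to 149.8 and 69.1 to 137.9 CPM per kb).

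Of the RNA of the channel genes per kilobase, the Kv1 subfamily made up 27.9% in hindbrain-marker libraries, 18.6% in cortex-marker libraries, 16.8% in the cerebellum-marker library and 13.3% in olfactory-marker libraries. Kv3 took 20.3%, 12.3%, 29.1% and 9.78% in the same order of classes. The axonal Kv1 and fast-firing Kv3 genes thus together took a larger share where hindbrain or cerebellar markers were high than in the other 2 classes. The silent Kv subunits ran the other way, with 4.37 to 5.10% over hindbrain-marker libraries, 12.0 to 14.4% over cortex-marker libraries and 11.4 to 15.2% over olfactory-marker libraries. The inward rectifiers took 24.7 to 28.5%, 24.0 to 25.6% and 28.6 to 33.4% in hindbrain-, cortex- and olfactory-marker libraries, with 18.5% in the cerebellum-marker library.

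**Figure D2:**
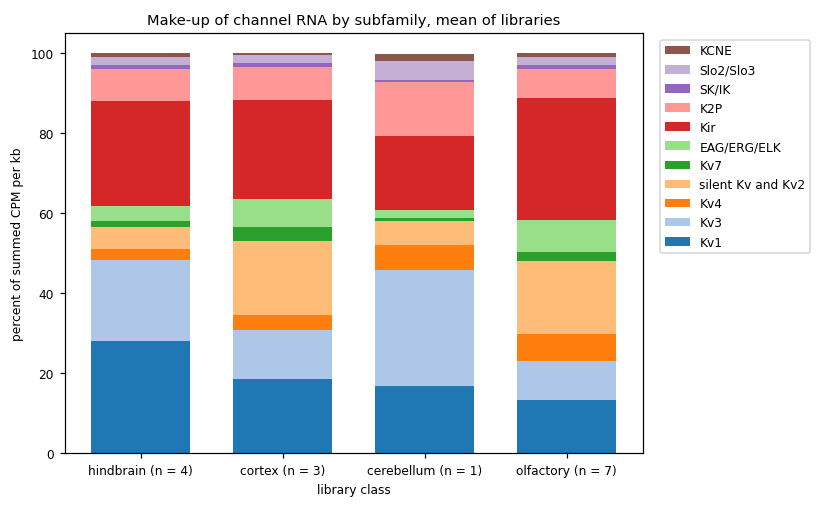
Share of each subfamily in the summed CPM per kb of exon of the 71 channel and subunit genes (y axis, percent), as the mean over the libraries of each marker class (x axis). Kv1 takes its largest share in the hindbrain bar and Kv3 in the cerebellum bar, and silent Kv, drawn together with Kv2, is wider in the cortex and olfactory bars.

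Kv1 channels form the delayed rectifiers of axons, and 3 of the 6 Kv1 genes were higher and 2 lower in hindbrain- than in olfactory-marker libraries. Kcna1 (chromosome 6, 126636463 to 126645801, minus strand) lay at 971 and 989 CPM in the TG hindbrain-marker libraries and 1039 and 799 CPM in the WT ones. It lay at 669.9 CPM in the TG cortex-marker library and 469 and 355 CPM in the WT ones, at 625 CPM in the cerebellum-marker library and at 197 to 305 CPM in the 7 olfactory-marker libraries, with a median of 238. Every hindbrain-marker library was above every library of the other classes, and the log2 difference was 1.99 against olfactory-marker libraries. Kcna2, which encodes the usual partner of the Kcna1 subunit, lay at 932 to 1107 CPM in hindbrain-marker libraries and 427 to 491 CPM in olfactory-marker libraries. Kcna6 was higher in both hindbrain- and cortex-marker libraries (254 to 278 and 201 to 257 CPM) than in olfactory-marker libraries (67.7 to 161 CPM). Kcna4 and Kcna5 were the members that ran the other way. Kcna4, the inactivating A-type subunit, lay at 19.1 to 21.3 CPM in hindbrain-marker, 28.5 to 37.0 CPM in cortex-marker and 67.4 to 130.3 CPM in olfactory-marker libraries, with no overlap between olfactory and either other class. Kcna5 lay at 7.31 to 11.9, 2.35 to 6.66 and 17.8 to 33.2 CPM in these 3 classes, so that the classes formed 3 separate levels. Kcna3 stood apart only between hindbrain- and cortex-marker libraries, at 6.17 to 13.3 and 14.6 to 21.8 CPM.

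The myelin and oligodendrocyte list moved with the same split. All 9 of its genes stood apart, higher in hindbrain-marker libraries, and their sum was 17989 to 23316 CPM there, 2686 to 5458 CPM in cortex-marker libraries, 5991 CPM in the cerebellum-marker library and 1948 to 3678 CPM in olfactory-marker libraries. The list of 8 neuronal genes summed to 6645 to 7898, 9308 to 11652, 6154 and 6548 to 7547 CPM in these classes. The part of these cell types in the channel differences was not tested. Among 6 anchors of Kv1 channels beside the node, Cntn2, a contactin that clusters them, stood apart, at 561 to 619.6 CPM in hindbrain-marker and 146 to 232 CPM in olfactory-marker libraries, and the other 5 did not. Of 10 auxiliary subunits of Kv channels, the β-subunit genes Kcnab1 (log2 difference 1.98) and Kcnab2 (1.03) were higher in hindbrain-marker libraries, and Kcnip2 (-3.04) and Dpp10 (-1.23), auxiliary subunits of Kv4 channels, were lower.

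Kv3 channels open and close fast and allow high firing rates. Kcnc4 lay at 108 to 118 CPM in hindbrain-marker and 90.7 to 131 CPM in cortex-marker libraries, both above the 26.0 to 70.2 CPM of olfactory-marker libraries. Kcnc1 and Kcnc2 stood apart in no pair of classes, with Kcnc1 at 421 to 550.3, 336 to 531 and 369 to 519 CPM in hindbrain-, cortex- and olfactory-marker libraries.

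Kv2 channels are the main delayed rectifiers of the soma. Kcnb2 lay at 10.5 to 11.4, 25.02 to 27.8 and 43.8 to 119 CPM in hindbrain-, cortex- and olfactory-marker libraries, so that the 3 classes did not overlap and the olfactory-marker libraries were highest.

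The silent subunits form no channel by themselves and alter Kv2 channels as partners, and their differences ran in both directions. Of the 9, 3 were higher and 3 lower in hindbrain- than in olfactory-marker libraries. Kcnf1 (chromosome 12, 17172100 to 17176888, minus strand) lay at 19.3 and 24.5 CPM in the TG hindbrain-marker libraries and 16.5 and 11.3 CPM in the WT ones. It lay at 255 CPM in the TG cortex-marker library and 321 and 398 CPM in the WT ones, at 3.98 CPM in the cerebellum-marker library and at 331 to 660.2 CPM in the 7 olfactory-marker libraries, with a median of 596. The cerebellum-marker library was the lowest of all, and the hindbrain- and olfactory-marker classes differed by -4.93 on the log2 scale. Kcnv1 lay at 3.66 and 3.81 CPM in the TG hindbrain-marker libraries and 3.38 and 3.81 CPM in the WT ones. It lay at 172 to 230.1 CPM in cortex-marker libraries, 0.357 CPM in the cerebellum-marker library and 47.9 to 94.9 CPM in olfactory-marker libraries, so that cortex was highest. The log2 difference of Kcnv1 between hindbrain- and cortex-marker libraries was -5.56.

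Kcng4 was the opposite case among the silent subunits. Kcng4 (chromosome 8, 119623854 to 119635680, minus strand) lay at 107 and 109 CPM in the TG hindbrain-marker libraries and 123 and 112 CPM in the WT ones. It lay at 22.6 CPM in the TG cortex-marker library and 13.7 and 6.17 CPM in the WT ones, at 253 CPM in the cerebellum-marker library and at 5.96 to 9.09 CPM in the 7 olfactory-marker libraries, with a median of 7.81. Its log2 difference between hindbrain- and olfactory-marker libraries was 3.83, the largest positive one of the family. Kcns3 lay at 28.3 to 31.5 CPM in hindbrain-marker, 10.6 to 16.4 CPM in cortex-marker and 1.66 to 4.39 CPM in olfactory-marker libraries, 3 levels without overlap. Kcns1 was highest in the cortex-marker class, at 72.4 CPM in the TG cortex-marker library and 37.9 and 21.0 CPM in the WT ones, with 8.23 to 11.1 CPM in hindbrain-marker and 2.43 to 7.12 CPM in olfactory-marker libraries. Its log2 difference of 3.20 was the largest positive one between cortex- and olfactory-marker libraries, although the 3 cortex-marker libraries differed among themselves more than 3-fold. Kcns2 was lower in hindbrain- than in olfactory-marker libraries (-1.53), Kcng3 was higher in cortex- than in olfactory-marker libraries (1.17), and Kcng1 and Kcng2 stood apart in no pair.

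**Figure D3:**
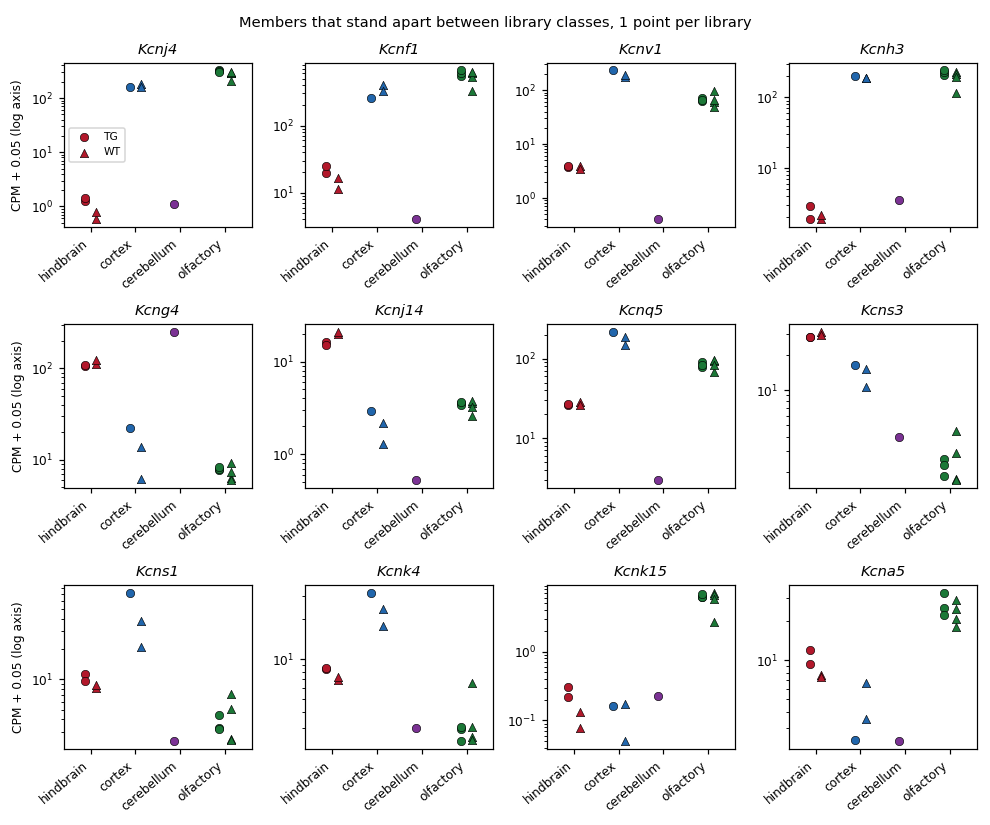
CPM plus 0.05 on a log axis for 12 members with wide class differences, 1 point per library, by marker class (x axis), with TG libraries as circles left of WT libraries as triangles. TG and WT libraries of the hindbrain- and olfactory-marker classes lie closer to each other than to the other class in most panels, as for Kcnj4, at 0.533 to 1.36 CPM in hindbrain-marker and 202 to 322 CPM in olfactory-marker libraries. The 12 were chosen for their class differences, so this closeness follows in part from the choice.

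Kv4 channels carry the A-type current of dendrites, and 2 of the 3 Kv4 genes were lower in hindbrain- than in olfactory-marker libraries. Kcnd2 lay at 101 to 108 CPM in hindbrain-marker and 173 to 246 CPM in olfactory-marker libraries, with 332 CPM in the cerebellum-marker library. Kcnd3 lay at 89.9 to 104 and 228 to 299.6 CPM in hindbrain- and olfactory-marker libraries. Its antisense RNA Kcnd3os, which overlaps it, lay at 0.753 to 1.25 and 2.84 to 4.82 CPM, and as the strand setting of the counting was not given, reads of the pair cannot be told apart. The same holds for Kcnq1 and Kcnq1ot1, of which Kcnq1 stood apart (log2 difference 1.16 between hindbrain- and olfactory-marker libraries, at most 3.11 CPM) and Kcnq1ot1 did not.

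Kv7 channels carry the M-current, which damps repeated firing. Kcnq3, which encodes a subunit of this current, was higher in cortex- than in olfactory-marker libraries (29.7 to 38.1 and 12.6 to 20.9 CPM). Kcnq5 differed most, at 26.0 to 28.4 CPM in hindbrain-marker, 147 to 219 CPM in cortex-marker and 68.1 to 96.8 CPM in olfactory-marker libraries, with 2.91 CPM in the cerebellum-marker library.

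The Kcnh genes encode the EAG, ERG and ELK channels, and of the 8, 4 were lower and none higher in hindbrain- than in olfactory-marker libraries. Kcnh3, an ELK channel of forebrain neurons, lay at 2.83 and 1.88 CPM in the TG hindbrain-marker libraries and 2.09 and 1.84 CPM in the WT ones. It lay at 202 CPM in the TG cortex-marker library and 187 and 190.0 CPM in the WT ones, at 3.45 CPM in the cerebellum-marker library and at 117 to 241 CPM in the 7 olfactory-marker libraries, with a median of 217. Hindbrain- and cerebellum-marker libraries were low and the other 2 classes high and overlapping, with log2 differences of -6.26 for hindbrain and -0.06 for cortex against olfactory. Kcnh4, another ELK channel, lay at 0.942 to 1.93, 30.3 to 44.4 and 15.02 to 26.2 CPM in hindbrain-, cortex- and olfactory-marker libraries. The remaining ELK gene, Kcnh8, had another pattern: it lay at 3.24 to 5.89 CPM in hindbrain-marker and 3.03 to 5.66 CPM in olfactory-marker libraries, and at 0.115 to 0.185 CPM in cortex-marker libraries, near the 0.0837 to 0.198 CPM that 3 counts amount to in these libraries. Kcnh8 reached 10 counts in 11 libraries, those of the hindbrain- and olfactory-marker classes. Its differences from cortex are thus not independent of the member rule. Kcnh2, the ERG channel best known from the heart, lay at 149 to 175, 39.8 to 42.0 and 81.7 to 114 CPM in hindbrain-, cortex- and olfactory-marker libraries. Kcnh1 and Kcnh7 were lower in hindbrain-marker libraries than in the other 2 classes, and Kcnh5 and Kcnh6 stood apart in no pair.

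Among the 13 inward rectifiers 2 were higher and 3 lower in hindbrain- than in olfactory-marker libraries. Kcnj4, a strong rectifier of forebrain neurons, had the widest difference of the family. It lay at 1.22 and 1.36 CPM in the TG hindbrain-marker libraries and 0.753 and 0.533 CPM in the WT ones. It lay at 162 CPM in the TG cortex-marker library and 157 and 184 CPM in the WT ones, at 1.07 CPM in the cerebellum-marker library and at 202 to 322 CPM in the 7 olfactory-marker libraries, with a median of 296. No hindbrain-marker library exceeded 1.36 CPM, and the log2 difference was -7.66 against olfactory-marker and -6.88 against cortex-marker libraries. Kcnj14, which encodes another strong rectifier of the same group, known from cranial motor neurons of the rat, ran the opposite way. Kcnj14 lay at 16.2 and 15.1 CPM in the TG hindbrain-marker libraries and 21.0 and 19.8 CPM in the WT ones. It lay at 1.23 to 2.87 CPM in cortex-marker libraries, 0.476 CPM in the cerebellum-marker library and 2.51 to 3.67 CPM in olfactory-marker libraries. The hindbrain-marker libraries were the only ones above 3.67 CPM.

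Kcnj10, which takes up potassium into glia, lay at 1240 and 1170 CPM in the TG hindbrain-marker libraries and 1469 and 1058 CPM in the WT ones. It lay at 348 CPM in the TG cortex-marker library and 332 and 293 CPM in the WT ones, at 488 CPM in the cerebellum-marker library and at 424 to 771 CPM in the 7 olfactory-marker libraries, with a median of 491. Hindbrain-marker libraries were above all others, with a log2 difference of 1.24 against olfactory-marker libraries. Kcnj16, whose product joins that of Kcnj10 in glial channels, lay at 97.7 to 123 CPM in hindbrain-marker, 39.8 to 44.4 CPM in cortex-marker and 49.1 to 66.7 CPM in olfactory-marker libraries and passed the 2-fold minimum against cortex alone. Of 8 astrocyte markers 3 were higher and 1 lower in hindbrain- than in olfactory-marker libraries, with sums of 4735 to 6495 CPM in hindbrain-marker, 4979 to 5371 CPM in cortex-marker, 3559 CPM in the cerebellum-marker and 3197 to 4097 CPM in olfactory-marker libraries. The part of astrocytes, and of the oligodendrocytes whose markers are given above, in the level of Kcnj10 was not tested.

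The G-protein-activated rectifiers Kcnj3, Kcnj6 and Kcnj9, which slow neurons on the action of transmitters, were not higher in hindbrain-marker libraries. Kcnj9 lay at 64.3 to 76.4 CPM in hindbrain-marker, 287 to 384 CPM in cortex-marker and 85.5 to 160.4 CPM in olfactory-marker libraries, with cortex highest. Kcnj6 and Kcnj3 had log2 differences of -1.26 and -1.05 between hindbrain- and olfactory-marker libraries. The pores of ATP-sensitive channels, Kcnj11 and Kcnj8, stood apart in no pair, while both of their sulfonylurea subunit genes, Abcc8 (1.01) and Abcc9 (1.34), were higher in hindbrain- than in olfactory-marker libraries. Kcnj5 had 0.110 to 5.28 CPM within the olfactory-marker class alone.

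Of the 11 K2P leak channels 9 did not stand apart between hindbrain- and olfactory-marker libraries. Kcnk1, the most abundant of them per length, lay at 103 to 129.6, 92.2 to 128 and 69.1 to 84.7 CPM in hindbrain-, cortex- and olfactory-marker libraries, with 234 CPM in the cerebellum-marker library. Kcnk15, whose product belongs to the TASK group but gave no current of its own in expression studies, reached 10 counts only in the 7 olfactory-marker libraries. It thus entered the member list through the class where it is high, so its class difference is not independent of the member rule. Kcnk15 lay at 0.0279 to 0.257 CPM in hindbrain-marker and 0 to 0.123 CPM in cortex-marker libraries, levels of about 3 counts or fewer in most of them. It lay at 2.67 to 7.12 CPM in the 7 olfactory-marker libraries, with a median of 6.08, and the lowest of these, WT male 1, was also the lowest of the class for Kcnj4 and Kcnf1. WT male 1 had the lowest summed olfactory bulb markers of its class, at 542 CPM, and the part of these in the 3 genes was not tested. Kcnk4, a mechanosensitive channel, was highest in cortex-marker libraries (17.6 to 31.8 CPM), against 6.92 to 8.47 CPM in hindbrain-marker and 2.33 to 6.52 CPM in olfactory-marker libraries. Kcnk13, a channel of microglia, lay at 29.5 to 32.7 CPM in hindbrain-marker and 6.72 to 13.3 CPM in cortex-marker libraries, a log2 difference of 1.56. None of 6 microglial markers stood apart between these classes, and their sums were 243 to 295 and 238 to 287 CPM. The part of microglia in the level of Kcnk13 was not tested.

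Of the 4 calcium-activated Kcnn genes, Kcnn1, Kcnn2 and Kcnn3, the SK channels of neurons, stood apart in no pair. Kcnn2, the most abundant per length, lay at 24.1 to 29.6, 26.6 to 33.6 and 21.1 to 32.7 CPM in hindbrain-, cortex- and olfactory-marker libraries. Kcnn4, an intermediate-conductance channel of blood and epithelial cells, was low everywhere but stood apart, at 0.193 to 0.398 CPM in hindbrain-marker, 0.163 to 0.370 CPM in cortex-marker and 0.713 to 1.63 CPM in olfactory-marker libraries. It reached 10 counts in 8 libraries, all those of the olfactory-marker class and WT female 3, the library with the most counts. Like Kcnk15, it met the member rule through the class where it is high. Its class differences are thus not independent of that rule. The lowest values of both low classes lie within the 0.0837 to 0.198 CPM that 3 counts amount to. Its log2 differences against olfactory-marker libraries were -1.16 for hindbrain and -1.24 for cortex, and at such levels they depend on the 0.5 added before the log. Of 9 genes of the large-conductance (BK) channel, 4 were lower in hindbrain- than in olfactory-marker libraries and none higher, among them the pore gene Kcnma1 (-1.28) and its neuronal β subunit Kcnmb4 (-2.28). Of the sodium-activated pair, Kcnt1 stood apart in no pair of classes and Kcnt2 lay at 13.8 to 25.4 CPM in cortex-marker libraries, against 2.96 to 7.45 CPM in olfactory-marker libraries. Among the KCNE subunits Kcne1l was low in cortex-marker libraries, at 1.55 to 4.38 CPM, with 13.1 to 16.6 CPM in hindbrain-marker and 10.3 to 16.1 CPM in olfactory-marker libraries. Of 4 genes of the related HCN channels, Hcn2 was higher (1.37) and Hcn3 lower (-1.14) in hindbrain- than in olfactory-marker libraries.

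TG female 3, the single library of the cerebellum-marker class, has no replicate. In it 8 members lay at least 2-fold above every other library, beside 2.46% of all genes, and 15 at least 2-fold below every other library, beside 3.70%. Kcne2, an auxiliary subunit known from the stomach and choroid plexus, had 23.5 CPM there and at most 0.772 CPM elsewhere. Kcnj13, a rectifier of choroid plexus and other epithelia, had 19.2 CPM there and at most 4.24 CPM elsewhere. The sum of 5 choroid plexus markers was 808 CPM in TG female 3, against 13.4 to 20.9, 4.48 to 17.4 and 50.2 to 66.7 CPM in hindbrain-, cortex- and olfactory-marker libraries, and its part in these 2 genes was not tested. Kcnj12, a strong rectifier, had 110.4 against at most 24.3 CPM, Kcnk3, a TASK leak channel, 158 against 54.5, and Kcnc1 1277 against 550.3. The other 3 were Kcng4, Kcnk10 and Kcnt1. The 15 low ones included Kcnv1, Kcnf1, Kcnq5 and Kcnc2.

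Members that lie next to each other in the genome did not share one pattern. Only members that follow each other along a chromosome were paired. On GRCm38.p6, 11 such pairs overlap or lie within 500 kb of each other. Kcnj9 and Kcnj10 on chromosome 1 are 11887 bases apart and on opposite strands, and their log2 differences between hindbrain- and olfactory-marker libraries were -0.65 and 1.24, with 1.65 and -0.68 between cortex- and olfactory-marker libraries. On chromosome 6, Kcna5, Kcna1 and Kcna6 lie within 1 cluster, with differences of -1.41, 1.99 and 1.53 between hindbrain- and olfactory-marker libraries. Kcnk15 and Kcns1 on chromosome 2, 304744 bases apart, differed by -3.42 and 3.20 between cortex- and olfactory-marker libraries. Kcna2 and Kcnc4 on chromosome 3 were both higher in hindbrain-marker libraries, at 1.14 and 1.52.

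**Figure D4:**
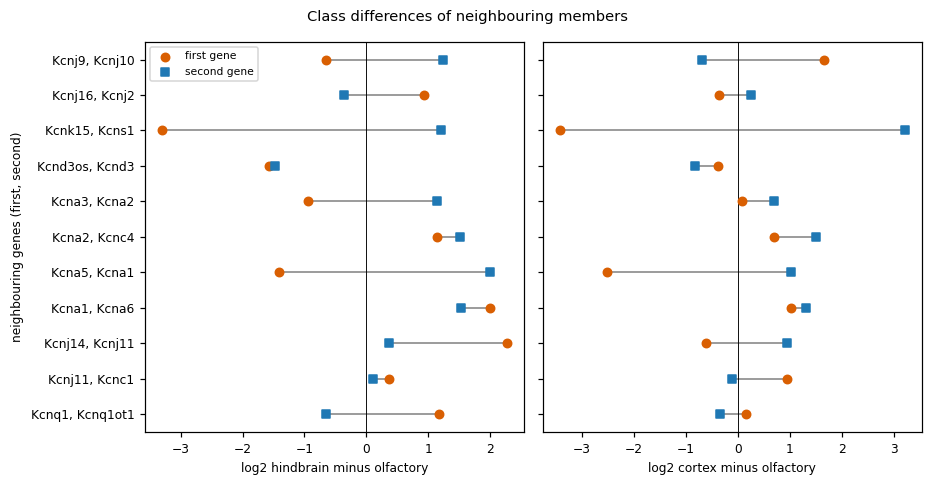
Difference of class means of log2(CPM + 0.5) for the 11 pairs of consecutive members that overlap or lie within 500 kb (rows). The first gene of a pair is a circle and the second a square, for hindbrain minus olfactory (left) and cortex minus olfactory (right). No error is drawn. Kcnj9 and Kcnj10 lie on opposite sides of 0 in both panels and swap sides between them.

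Between TG and WT, no potassium channel gene passed the threshold. Over all 15 libraries with sex as a covariate, 0 of 72 members tested were called (edgeR's quasi-likelihood test, Benjamini-Hochberg adjusted p under 0.05 over 17151 genes), beside 0.111% of all genes, and 2 had an unadjusted p under 0.05, where 1.83% of all genes had one. Kcne2 was not tested because it failed the count filter. With a term for library class added, 0 of 72 were called beside 0.496% of all genes, and 12 had an unadjusted p under 0.05, 10 of them higher in TG, where 8.40% of all genes had one. The direction of genes at that p was not counted over all genes. DESeq2 also called 0 members in both fits. Between libraries the biological coefficient of variation was 14.2% with the class term and 43.1% without it, and the members' median log2 difference was 0.06 with it and -0.10 without it, beside 0.00101 and -0.000694 over all genes. Within olfactory-marker libraries (3 TG and 4 WT) 0 of 72 were called beside 0.245% of all genes, and within hindbrain-marker libraries (2 TG and 2 WT) 0 of 72 beside 0.07%. At an unadjusted p under 0.05 these contrasts held 5 and 3 members, 4 and 1 of them higher in TG, beside 7.75% and 5.81% of all genes. The test of whether the genotype difference differs between those classes called 0 of 72 beside 0.0117% of all genes, with 6 at an unadjusted p under 0.05, beside 5.46% of all genes. The genotype-by-sex interaction called 0 of 72 beside 0% of all genes, with 19 at an unadjusted p under 0.05, beside 12.5% of all genes. The cortex-marker class held 1 TG library and the cerebellum-marker class no WT library. A p above the threshold does not show that levels were equal.

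**Figure D5:**
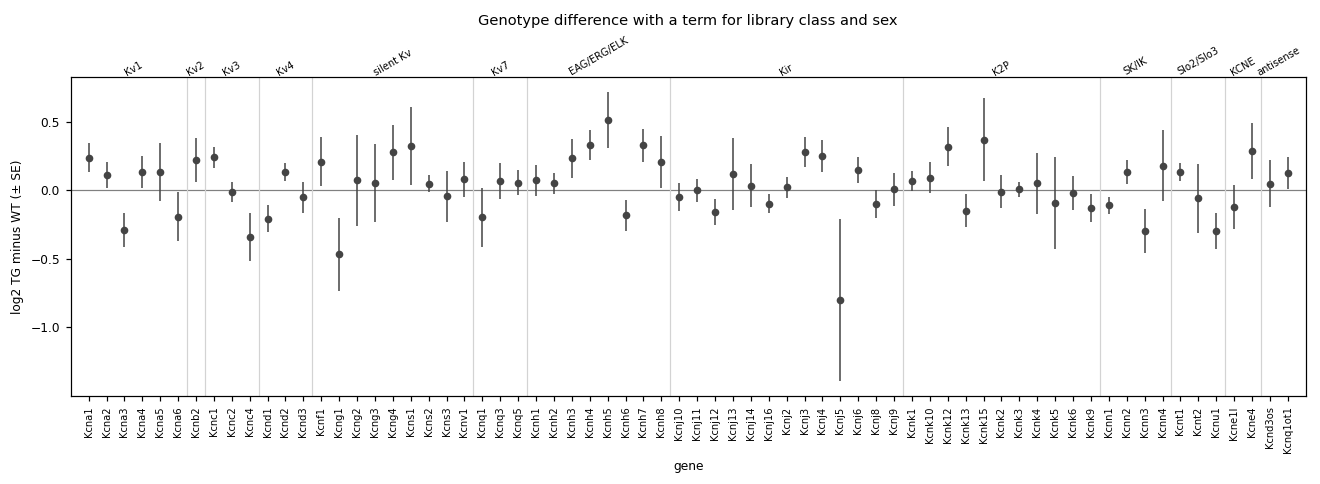
Log2 difference TG minus WT with its SE for 68 tested members (x axis, by subfamily) from the fit with sex and library class as covariates, over 7 TG and 8 WT libraries. Most members lie within 0.5 of 0, none passed the threshold, and Kcnj5, with few counts, has the widest error.

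The members with the smallest p are given with their values although they did not pass. With the class term, Kcnc1 had a log2 difference of 0.24 ± 0.08 (SE) and an edgeR adjusted p of 0.342. Kcnh4 and Kcnh7, an ELK and an ERG channel, had 0.33 ± 0.11 and 0.33 ± 0.12, with adjusted p of 0.397 and 0.485 in the same edgeR fit. Without the class term the first was again Kcnc1, at 0.49 ± 0.20, and the value was 0.25 without TG female 3, the cerebellum-marker library. Kcnk12 followed with 0.46 ± 0.21, which was 0.29 without TG female 3, and Kcna3 with -0.50 ± 0.26, and the edgeR adjusted p of each was 1.00. Of the TG libraries 3 of 7 are hindbrain- or cerebellum-marker libraries and of the WT libraries 2 of 8, so class and genotype are unequally mixed in that fit.

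Within olfactory-marker libraries Kcne4, an inhibitory auxiliary subunit, had the smallest p. It lay at 5.27, 3.18 and 5.66 CPM in TG female 2, TG male 1 and TG male 3, against 3.43, 3.04, 2.91 and 2.42 CPM in WT females 1 and 4 and WT males 1 and 2. The groups overlapped, and the log2 difference was 0.76 ± 0.24 with an edgeR adjusted p of 0.442. Kcna4 had 0.35 ± 0.14 and Kcnk5 0.70 ± 0.30 in this class, with edgeR adjusted p of 0.599 and 0.630. In this class 2 members, Kcnj4 among them, had every TG library above every WT library, beside 3.66% of all genes, and 0 had every TG library below, beside 3.02%. Kcnj4 lay at 322, 322 and 304 CPM in TG female 2, TG male 1 and TG male 3, against 294, 296, 202 and 289.7 CPM in WT females 1 and 4 and WT males 1 and 2. The gap between the lowest TG and the highest WT library was small beside the spread within WT, where WT male 1 lay apart, and the log2 difference of 0.25 ± 0.12 did not pass (edgeR adjusted p 0.654).

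Within hindbrain-marker libraries Kcnj4 had the smallest p, with a log2 difference of 0.93 ± 0.34 and an edgeR adjusted p of 0.728, at the level of about 1 CPM given above. Kcnj14 and Kcnk1 had -0.48 ± 0.19 and -0.20 ± 0.08, with edgeR adjusted p of 0.803 and 0.812. For both, the TG and WT libraries of the class are 2 each, and those of Kcnk1 overlapped. For the difference of the genotype effect between the 2 classes the smallest p belonged to Kcnk5, Kcnk1 and Kcne4, with -1.36 ± 0.50, -0.27 ± 0.10 and -0.99 ± 0.40 for hindbrain minus olfactory and an edgeR adjusted p of 0.851 for each. For the genotype-by-sex interaction, taken as TG minus WT in males minus the same in females, the smallest p belonged to Kcnd2 (0.39 ± 0.10), Kcna6 (-0.96 ± 0.26) and Kcnn2 (0.48 ± 0.13), each with an edgeR adjusted p of 0.321. Among the auxiliary subunit, BK, sulfonylurea, Kv1 anchor and HCN lists, 0 of 29 genes tested were called in any of these 6 comparisons. Myelin markers of olfactory-marker libraries summed to 2379 to 3594 CPM for TG, against 1948 to 3678 CPM for WT. In hindbrain-marker libraries, 2 of each genotype, the sums were 17989 to 20410 CPM for TG, against 20623 to 23316 CPM for WT. These sums were not tested for genotype.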

How the data were processed

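The 15 libraries were made from brain hemispheres, per the labels. The authors deposited raw counts per gene, whole numbers without normalization. Alignment used STAR 2.7.5b, the genome was GRCm38 and counting used featureCounts (Subread), per the submitters' processing notes. Its strand, fragment and multiple-match settings are not given in the sources used here. IDs were named through RefSeq (25275) or GENCODE (18), and the 1886 without a symbol held 0.836% of counts. Every pair of libraries differed by more than sampling noise (chi-square per gene of at least 6.34). Counts were tested with edgeR 4.0.16 (TMM, filterByExpr, robust quasi-likelihood F test, Benjamini-Hochberg at 0.05) in R 4.3.3 after tests on simulated data, and with DESeq2 1.42.0 as an alternative. CPM use TMM-scaled library sizes, and CPM per kb divide them by GENCODE vM21 exon length. Library classes came from Ward clustering on region markers, without genotype.

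The members, lists, classes and naming rule were chosen with earlier results of these data known. The rule names, by genotype, members called or else the 3 with the smallest p in each fit. By class it names the most abundant member of each subfamily per length and those standing apart with the largest difference, and for TG female 3 the 5 highest over every other library. Some members that the rule names are not reported here. Other members with values were chosen after those were seen, namely Kcna2, Kcnq3, Kcns2, Kcng3, Kcnj3, Kcnj5, Kcnj6 and Kcnj16. Alternatives were other size factors, filters, fold minimums, DESeq2, the replicate number as a block, fewer libraries, and fits without 1 library. The transgene itself was not analysed here. Limits of 3 counts cover counting error only.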

Additional observations from a re-analysis of the deposited data

Results flagged for a closer look

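Of 42 groups of 4 libraries of one genotype and sex checked for 14 genes named by genotype, 7 had a library far from the others. In each, that library belonged to a marker class that no other library of its group shared. Chance flags about 1 in 20 in groups of like libraries, but these groups mix marker classes. The check was not run over all genes, so the count cannot be read as particular to these genes. Among TG females, TG female 2, the only olfactory-marker library, had 102 CPM of Kcna4 (5.47 to 21.3 in the others), 26.2 CPM of Kcnh4 (0.535 to 1.93) and 322 CPM of Kcnj4 (1.07 to 1.36). TG female 3, with cerebellar markers, had 1277 CPM of Kcnc1, beside 460 to 550 CPM in the others. WT female 3 and WT male 3, with hindbrain markers, had 21.0 and 19.8 CPM of Kcnj14, beside 2.12 to 3.67 CPM in the other WT females and 1.23 to 3.50 CPM in the other WT males. WT male 3 also had 3.56 CPM of Kcnk5, beside 0.838 to 1.25 CPM in the other WT males. The cause was not tested.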

How the results depend on the processing

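In all 121 genotype fits run, 0 members were called, the lowest adjusted p being 0.123 in edgeR for Kcnj3 (genotype-by-sex interaction, without WT male 2). That covers DESeq2, other size factors and filters, each library left out, the fits without hindbrain and cerebellum libraries and the replicate block, which called 0 members with and without the class term. The block moved the calls over all genes to 16 and 53, from 19 and 85 without it, but same-numbered libraries do not pair, their deviations correlating at -0.654 to 0.925 over 21 pairs. Over all genes the calls ran over the settings from 7 to 40 without and 41 to 175 with the class term (highest with DESeq2, lowest without hindbrain and cerebellum libraries), 18 to 69 within olfactory-marker and 4 to 15 within hindbrain-marker libraries, 0 to 25 for their difference and 0 to 1 for the interaction. With a 4-fold minimum, 12 members stood apart between hindbrain and olfactory, 7 between cortex and olfactory and 16 between hindbrain and cortex, beside 33, 21 and 34 at 2-fold. With no minimum fold, 46 did so between cortex and olfactory. Shares over all genes are given for the 2-fold minimum alone. The counts at the other minimums therefore cannot be read against genes in general. Leaving out 1 library at a time gave 33 to 34, 19 to 26 and 32 to 35, and no member standing apart reversed. Kcnh2 moved to 2.10 without TMM, from 1.96 (hindbrain minus cortex). Values near 3 counts, as for Kcnk15, Kcnh8 and Kcnn4 in cortex-marker libraries, are limited by depth.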
